A study of Gallus gallus with 4 samples.

Results

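Narrow H3K4me3 peaks that overlapped H3K27me3 and no H3K27ac were examined in otic-epibranchial progenitors (OEPs), the cranial ectoderm of the chick embryo from which the ear and the epibranchial placodes form. The members were rows of the H3K4me3 peak list on numbered chromosomes that were narrower than 1570 bp, the width at which the widest 5% of the list starts. Each overlapped H3K27me3 by 1 bp or more, with all such H3K27me3 peaks under 4000 bp wide, and overlapped no H3K27ac peak. This rule was met by 2952 of the 27344 H3K4me3 peaks. The members were thus selected on the width of the H3K4me3 peak, the presence and width of an H3K27me3 peak and the absence of an H3K27ac peak, and these values are given as descriptions.

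All libraries were made from ectoderm of unmanipulated embryos at 8 to 9 somites, about 200 dissected pieces being used. Chromatin immunoprecipitation sequencing (ChIPseq) was performed with 1 library each for H3K4me3, H3K27me3 and H3K27ac, and an input library was sequenced without antibody. No peak list of the input was used here. Whether the input stands behind the enrichment values, as the control of the peak caller, is not given in the sources used. With 1 library per mark and no replicate, no test between samples was possible, and the intervals given for shares of peaks are exact 95% intervals that express counting error alone, with peaks taken as independent. The lists hold no read counts, so the depth of the libraries is unknown.

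Trimethylation of histone H3 at lysine 4 (H3K4me3) is laid down at promoters, and trimethylation at lysine 27 (H3K27me3) is the product of Polycomb repressive complex 2 and accompanies silenced genes. Regions that carry both, known as bivalent, were described first in embryonic stem cells, where many lie at genes of later developmental programs. Acetylation at lysine 27 (H3K27ac) occupies the same residue as H3K27me3 and marks active promoters and enhancers, so that a single histone tail cannot carry both. In tissue pooled from many embryos, both methyl marks on the same nucleosomes and a mixture of cells or alleles with one mark each cannot be told apart.

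Of 25308 H3K4me3 peaks on the 32 numbered chromosomes of the list, 24051 were narrow. Overlap with H3K27me3 was found for 4688 of the narrow peaks, or 19.5%. H3K27ac removed 1376 of these, and an H3K27me3 peak of 4000 bp or more removed another 360. The members made up 12.3% of narrow H3K4me3 peaks (interval 11.9 to 12.7). By the same overlaps, 7139 narrow peaks (29.7%) carried H3K27ac without H3K27me3 and 12224 (50.8%) carried neither mark. The members are described against these 2 classes and, where it bears on a value, against the 1376 peaks with both H3K27me3 and H3K27ac and the 360 peaks with wide H3K27me3.

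Values on either side of each limit were close. The widest member measured 1560 bp, and the narrowest H3K4me3 peak that met all but the width limit measured 1570 bp. The widest H3K27me3 peak of a member was 3988 bp, and the narrowest that removed a peak was 4008 bp. A member shared as few as 2 bp with H3K27me3, whereas a peak outside the class touched an H3K27me3 peak with a gap of 0 bp. The member nearest to H3K27ac lay 7 bp from it, and an excluded peak shared 2 bp with H3K27ac.

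Members were short and of modest enrichment. Their median width was 463 bp (quartiles 290 and 842 bp), against 488 bp (302 and 879 bp) for narrow peaks with H3K27ac and 363 bp (266 and 729 bp) for peaks with neither mark. Widths under 300 bp were found for 27.7% of members (26.1 to 29.4), 24.2% of peaks with H3K27ac (23.2 to 25.2) and 37.6% of peaks with neither mark (36.7 to 38.5). The fold enrichment over background, which the peak caller gives as a mean over the peak, had a median of 2.94 in members (quartiles 2.66 and 3.36), 3.02 in peaks with H3K27ac and 2.92 in peaks with neither mark. The median over all narrow H3K4me3 peaks was 2.955, and values among members ranged between 1.21 and 11.5.

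A fold enrichment of at least 4 was reached by 241 members, or 8.16% (7.20 to 9.21). The whole H3K4me3 list gave 7.68%, and all narrow peaks on numbered chromosomes gave 7.23%. The share was 11.3% (10.6 to 12.0) among peaks with H3K27ac and 3.83% (3.50 to 4.18) among peaks with neither mark. The caller's estimate of the false discovery rate, the q-value, was 0.01 or below in H3K4me3 for 1494 members, 50.6% (48.8 to 52.4). It was so for 43.0% of the whole list and 41.3% of all narrow peaks on numbered chromosomes. The share of members was close to the 50.2% (49.1 to 51.4) of peaks with H3K27ac, with overlapping intervals, and above the 31.4% (30.6 to 32.2) of peaks with neither mark.

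**Figure D1:**
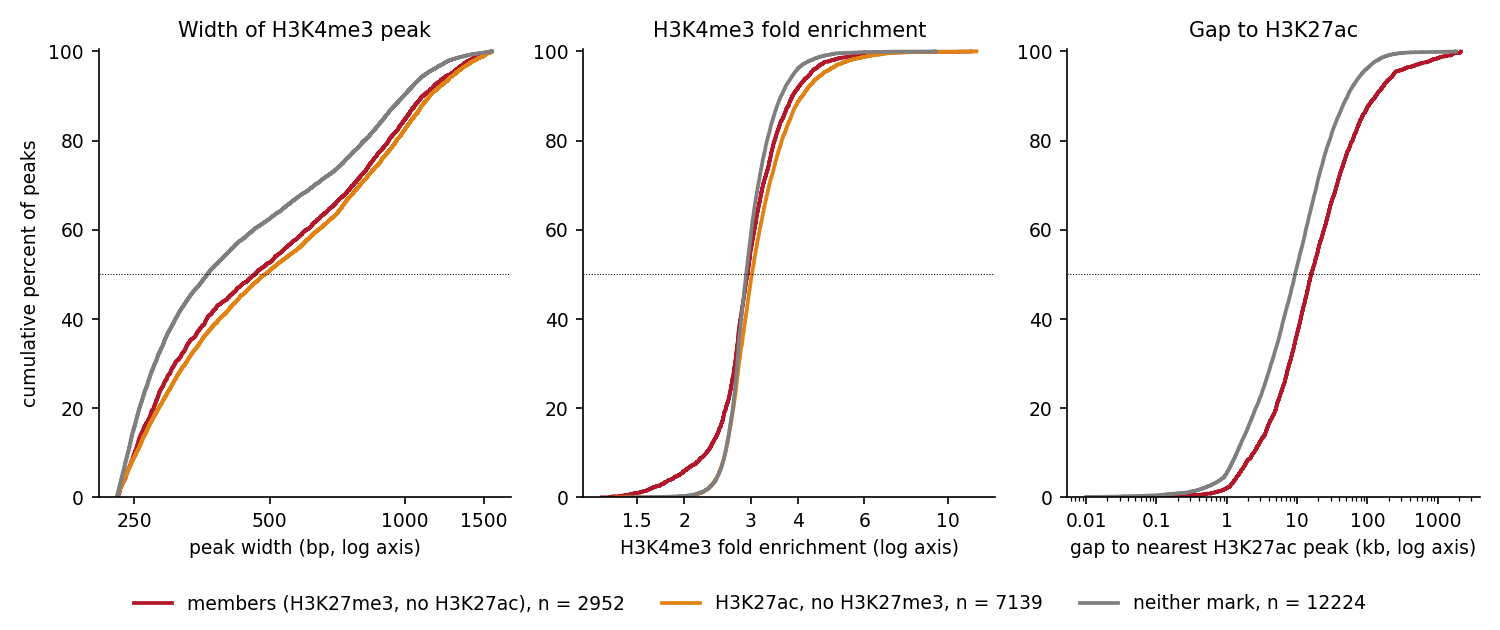
Cumulative percent of narrow H3K4me3 peaks by width in bp (left), H3K4me3 fold enrichment (middle) and gap in kb to the nearest H3K27ac peak (right; gaps under 0.01 kb are drawn at 0.01), for 2952 members, 7139 peaks with H3K27ac (not in the right panel, where their gap is 0) and 12224 peaks with neither mark. Peaks with wide H3K27me3 are not drawn. The member curve lies left of the other curves drawn at low fold enrichment, although the medians are 2.94, 3.02 and 2.92. It lies right of the curve of peaks with neither mark in the gap, with medians of 15834.5 and 9330.5 bp.

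The strongest member by H3K4me3 was a short region of chromosome 3. The peak chr3:21427929-21428209 (281 bp) had an H3K4me3 fold enrichment of 11.5 and lay on a peak of H3K27me3 of almost the same span, 293 bp with a fold enrichment of 9.09. Another member lay 993 bp away and the nearest H3K27ac peak 13945 bp away. Of the next 4 members in this order, 3 were also on chromosome 3. These were chr3:64588109-64588437 with a fold enrichment of 10.7 in H3K4me3 and 4.79 in H3K27me3, chr3:86844024-86844366 with 8.93 and 3.53, and chr3:52742021-52742452 with 7.80 and 7.88. The remaining member, chr8:26323219-26324044, reached 8.14 in H3K4me3 over a 234 bp H3K27me3 peak of 3.03 that covered 28.3% of it. In these 5 members H3K27me3 fold enrichment was between 3.03 and 9.09. Positions are those of the assembly GalGal6, and the members were not assigned to genes, because an annotation of this assembly was not used here.

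The 2 peaks of a member mostly lay on top of each other. The 2952 members overlapped 2906 H3K27me3 peaks in 2954 pairs, in which a median of 301 bp were shared. The median member was covered to 97.8% by H3K27me3 (quartiles 63.2 and 100%). Full cover was found for 1235 members, 41.8% (40.0 to 43.6), compared with 25.6% (23.3 to 28.0) of the narrow peaks that also carried H3K27ac. Cover depends on the widths of the 2 peaks, which were not corrected for. The H3K27me3 peak was the wider one in 67.9% of the pairs of members and 56.4% of the pairs of peaks that also carried H3K27ac. Narrow peaks with H3K27ac and no H3K27me3 were fully covered by H3K27ac at a share similar to that of members, 41.1% (39.9 to 42.2), with a median cover of 97.7%. The H3K27me3 peak extended past the member on both sides or ended with it in 1230 pairs (41.6%), it lay wholly inside the member in 359 pairs (12.2%), the spans were the same in 5 pairs, and the peaks were staggered in 1360 pairs (46.0%).

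The centre of the member fell within the H3K27me3 peak in 2393 pairs (81.0%, 79.5 to 82.4), and the distance between the 2 centres had a median of 165 bp. In 1204 pairs (40.8%, 39.0 to 42.6) it was at most 100 bp. Narrow peaks with both marks lay at a similar distance from the centre of their H3K27me3 peak, with a median of 154 bp and 43.5% (40.8 to 46.1) within 100 bp. Narrow peaks with H3K27ac alone lay at a median of 268 bp from the centre of their H3K27ac peak, which was also wider, with a median width of 1000 bp against 725.5 bp for the H3K27me3 peak of a member. An overlap of less than 50 bp, which a small shift of a boundary would remove, was seen in 59 pairs (1.997%).

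The 5 widest members show how differently H3K27me3 could sit on a member. At chr20:3664304-3665863 (1560 bp) and chr4:65462760-65464305 (1546 bp), H3K27me3 peaks of 2743 and 2357 bp covered the whole member. At chr10:20845366-20846914 (1549 bp), an H3K27me3 peak of 1552 bp covered 99.5%. By contrast, an H3K27me3 peak of 757 bp covered 48.5% of chr4:69640219-69641778 (1560 bp), and one of 250 bp covered 16.1% of chr7:13675696-13677246 (1551 bp).

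H3K27me3 peaks under members were wider and more enriched than other H3K27me3 peaks. Among H3K27me3 peaks under 4000 bp on numbered chromosomes, the 2906 under members had medians of 705 bp in width and 3.01 in fold enrichment. The 1682 that overlapped other H3K4me3 peaks had medians of 651 bp and 2.98, and the 14998 without H3K4me3 had medians of 424 bp and 2.81. Fold enrichments of 4 or more were found for 18.9% (17.5 to 20.4), 13.3% (11.7 to 14.97) and 4.97% (4.63 to 5.33) of these sets, given in the same order. A wider peak can overlap another list more readily, and this was not corrected for. Counted over members, 582 (19.7%, 18.3 to 21.2) had an H3K27me3 fold enrichment of at least 4, where the whole H3K27me3 list gave 10.2%. The H3K27me3 q-value was 0.01 or below in 1871 members (63.4%, 61.6 to 65.1), against 50.7% of the list. The whole list also holds peaks of 4000 bp or more and peaks off the numbered chromosomes, which the rule left out.

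When H3K27me3 peaks were divided into 10 groups of equal size by fold enrichment, the share that lay under a member was 33.2% (31.1 to 35.4) in the highest group and 9.70% (8.42 to 11.1) in the second lowest, while it was 13.7% (12.2 to 15.3) in the lowest, above each of the next 5 groups. By width it was 31.8% (29.7 to 33.9) in the widest group and 10.6% (9.24 to 12.0) in the narrowest. The most enriched H3K27me3 peak of these groups, at 15.1, overlapped an H3K4me3 peak that was not a member. Among H3K27me3 peaks under members, the 5 most enriched all lay on members with an H3K4me3 fold enrichment above the upper quartile of members, 3.36. At chr6:20873121-20873479 H3K27me3 reached 14.7 and H3K4me3 4.09, and at chr6:1118639-1118911 the values were 14.2 and 3.64. The remaining 3 had 13.2 and 5.86 (chr8:15074044-15074420), 12.6 and 3.89 (chr17:8344925-8345697), and 12.0 and 3.52 (chr10:9101321-9101592). All 5 were covered to 100% by H3K27me3.

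Across the 2952 members, the fold enrichments of the 2 marks were related, with a Spearman rho of 0.376, and so were the 2 widths, with a rho of 0.281. H3K4me3 width and H3K4me3 fold enrichment were weakly and inversely related (rho −0.156). These correlations are across peaks, which share 1 library per mark and are not independent, and neighbouring peaks can share background. H3K27me3 had the higher fold enrichment of the 2 marks in 1641 members (55.6%, 53.8 to 57.4), a comparison of values from different antibodies and libraries.

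**Figure D2:**
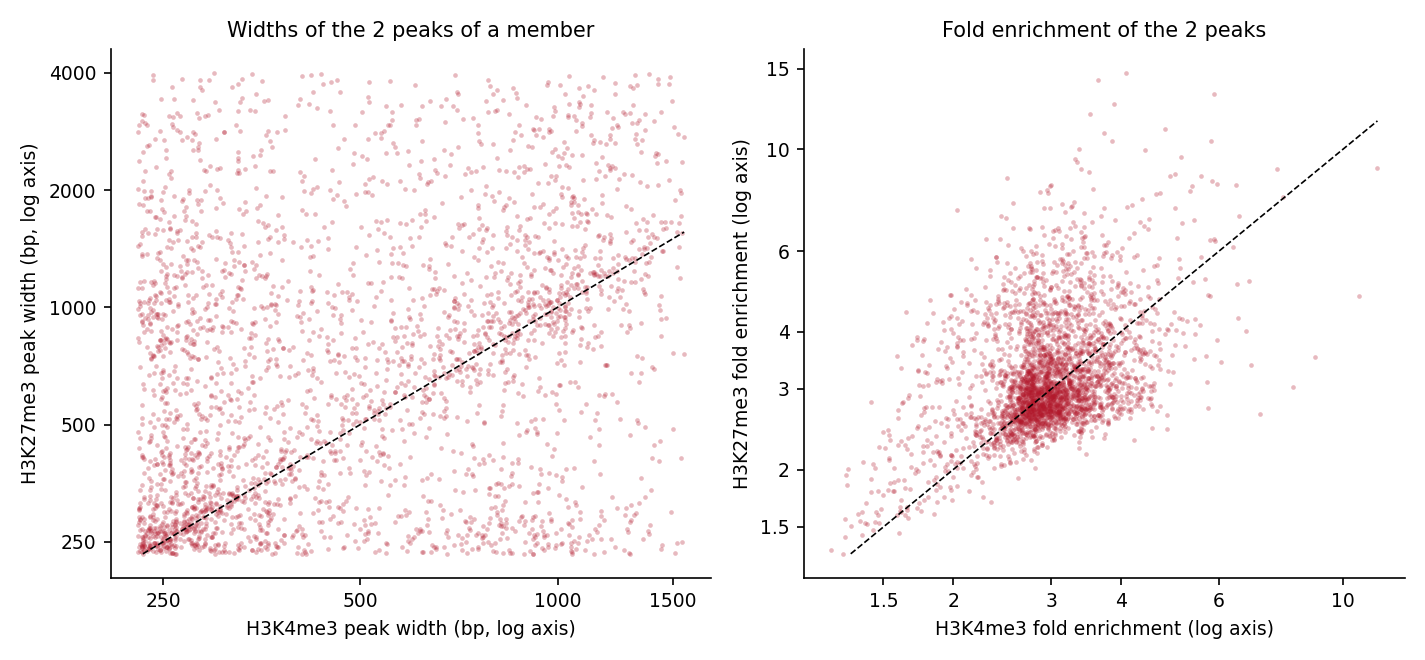
Each point is 1 of 2952 members, placed by the width in bp of its H3K4me3 peak and its H3K27me3 peak (left) and by the fold enrichment of each mark (right), on log axes, with the dashed line at equal values and the more enriched H3K27me3 peak drawn where a member overlapped 2. Points crowd along the line below 300 bp and near a fold enrichment of 3 in both marks, and the rho across members is 0.281 for width and 0.376 for fold enrichment.

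The evidence for both marks differed between members. Both q-values were at most 0.01 in 1133 members (38.4%, 36.6 to 40.2), and neither was in 720 (24.4%, 22.9 to 26.0). Both fold enrichments were at least 4 in 108 members (3.66%), found on 25 chromosomes. Shares for both marks at once were not computed in other classes, so these cannot be called high or low. In H3K4me3 alone, q-values of at most 0.01 were found for 50.6% of members. The share was 56.0% for peaks with both H3K27me3 and H3K27ac and 68.1% for peaks with wide H3K27me3. For H3K4me3 fold enrichments of at least 4, the shares of these 3 classes were 8.16%, 13.2% and 12.2%. The 108 members were shorter, with a median of 335 bp against 471 bp for the other 2844, and H3K27me3 covered 68.5% of them fully (58.9 to 77.1), compared with 40.8% (39.0 to 42.7). They were chosen by fold enrichment, which was inversely related to width across members (rho −0.156). Their H3K27me3 peaks were wider, with a median of 849.5 bp against 722.5 bp. Cover depends on both widths, which were not corrected for. The 108 members had a median of 5 other H3K27me3 peaks within 50 kb, and the other members a median of 3. The 720 members with weak calls in both marks were covered to a median of 81.0%, against 99.6% in the other 2232, and 7.50% of them (5.68 to 9.67) lay within 10 kb of another member, against 27.1% (25.3 to 29.0).

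In 788 members (26.7%), both peaks were narrower than 500 bp. This compact group, formed after the widths had been seen, had median fold enrichments of 3.03 in H3K4me3 and 3.02 in H3K27me3, compared with 2.90 and 3.01 in the other 2164 members. It lay within 10 kb of another member less often, in 14.7% against 25.1%.

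Members lay farther from H3K27ac than peaks with neither mark and nearer than peaks with wide H3K27me3. The median gap to the nearest H3K27ac peak was 15834.5 bp (quartiles 6364 and 45969 bp), against 9330.5 bp for peaks with neither mark, which also lack H3K27ac by definition, and 26577 bp for peaks with wide H3K27me3. It was 33289 bp when the 3 lists were restricted to q-values of 0.01 or below and 50823 bp when they were restricted to fold enrichments of 3 or more, filters that also removed H3K27ac peaks. An H3K27ac peak within 1 kb was found for 63 members (2.13%, 1.64 to 2.72) and 667 peaks with neither mark (5.46%, 5.06 to 5.87), and within 5 kb for 19.7% (18.3 to 21.2) and 33.4% (32.6 to 34.3). At the other extreme, 687 members (23.3%, 21.8 to 24.8) and 1297 peaks with neither mark (10.6%, 10.1 to 11.2) lay more than 50 kb from H3K27ac, as did 36.1% (31.1 to 41.3) of peaks with wide H3K27me3. Members had the larger median gap than peaks with neither mark on chromosomes of all 3 size groups. The median gaps were 15229 bp for members and 11897 bp for peaks with neither mark on chromosomes of 50 Mb or more, 12797 and 7951 bp on chromosomes of 20 to 50 Mb, and 25313 and 5316.5 bp on smaller ones. The smaller ones include 5 chromosomes, described below, whose members had a median gap of 193042 bp.

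Other H3K27me3 peaks were more frequent around members than around narrow peaks without H3K27me3, and most frequent around peaks with wide H3K27me3. Within 50 kb of the centre, and leaving out the overlapping peak, members had a median of 3 and a mean of 4.34 H3K27me3 peaks, compared with a median of 1 and a mean of 1.69 for peaks with H3K27ac and a median of 2 and a mean of 1.96 for peaks with neither mark. At least 1 was present for 90.2% of members (89.0 to 91.2), 75.6% of peaks with H3K27ac (74.6 to 76.6) and 80.1% of peaks with neither mark (79.4 to 80.8). Peaks with wide H3K27me3 had a mean of 7.43 and at least 1 in 99.7% (98.5 to 99.99), and peaks with both marks a mean of 2.601 and at least 1 in 84.4% (82.4 to 86.3). H3K27ac peaks showed the opposite order, with medians of 2 around members, 8 around peaks with H3K27ac and 4 around peaks with neither mark. In this count overlapping peaks were not left out. The value of 8 thus includes the H3K27ac peak that defines its class, whereas members and peaks with neither mark were chosen to overlap none. Another H3K4me3 peak lay within 5 kb of 31.5% of members (29.9 to 33.2), similar to the 29.9% (28.8 to 30.97) of peaks with H3K27ac and above the 22.6% (21.9 to 23.3) of peaks with neither mark.

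No H3K27ac peak had its centre within 50 kb of 694 members (23.5%). In these, the H3K27me3 peak was wider and more enriched, with a median of 878 bp and a fold enrichment of 3.24, against 669 bp and 2.97 in the other 2258 members. Their H3K4me3 fold enrichment was 2.79, against 2.97. They had a median of 6 other H3K27me3 peaks nearby, against 2.

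Most members stood alone. When members within 10 kb of each other were joined, 2293 of 2569 groups held a single member, and 659 members (22.3%, 20.8 to 23.9) fell into 276 runs of 2 or more. The corresponding share of peaks near another of their own class was 26.9% (25.8 to 27.9) among the 7139 peaks with H3K27ac and 23.7% (22.9 to 24.4) among the 12224 peaks with neither mark, both larger classes. Among smaller classes, it was 6.54% (5.29 to 7.98) for the 1376 peaks with both H3K27me3 and H3K27ac and 69.4% (64.4 to 74.2) for the 360 peaks with wide H3K27me3. This share depends on the number of peaks in a class, which was not corrected for. For members it was 9.27% with H3K27me3 peaks under 1000 bp and 14.0% with fold enrichments of 3 or more in all lists. Members in runs lay on wider H3K27me3 peaks (median 1192 bp against 636 bp for single members), which were more enriched (3.66 against 2.95), whereas their H3K4me3 fold enrichment was lower (2.81 against 2.96). H3K27me3 covered 70.4% of members in runs fully (66.8 to 73.9), compared with 33.6% of single members (31.7 to 35.6).

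The run with the most members lay at chr10:568031-611121, where 8 members in 43.1 kb accounted for all 8 H3K4me3 peaks. The interval held 15 H3K27me3 peaks and 0 H3K27ac peaks, and H3K27me3 covered every member fully. H3K4me3 fold enrichment was between 1.69 and 3.82 among the members, and the H3K27me3 peaks under them had fold enrichments between 3.14 and 4.54. The bounds of this run depend on the width limits of the rule. These limits left out H3K4me3 peaks that overlapped H3K27me3 at −24.3 to −23.2 kb and at 26.5 to 28.4 kb from its centre. At chr14:310721-344609, 6 of 7 H3K4me3 peaks were members, among 10 H3K27me3 peaks and 0 H3K27ac peaks. Fold enrichment there was between 1.45 and 3.43 in H3K4me3 and between 1.54 and 5.78 in the H3K27me3 peaks under members. At chr11:19984421-20005524, all 6 H3K4me3 peaks were members, among 7 H3K27me3 peaks and 0 H3K27ac peaks. Fold enrichment was low in both marks there, between 1.28 and 2.96 in H3K4me3 and between 1.43 and 2.98 in the H3K27me3 peaks under members. Runs of 6 members numbered 4, and those described here were picked among them by highest H3K4me3 fold enrichment. The nearest H3K27ac peak lay between 28591 and 95588 bp from the members of the 3 runs described. The runs lay 568, 311 and 195 kb from an end of the span of peaks of their chromosome.

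**Figure D3:**
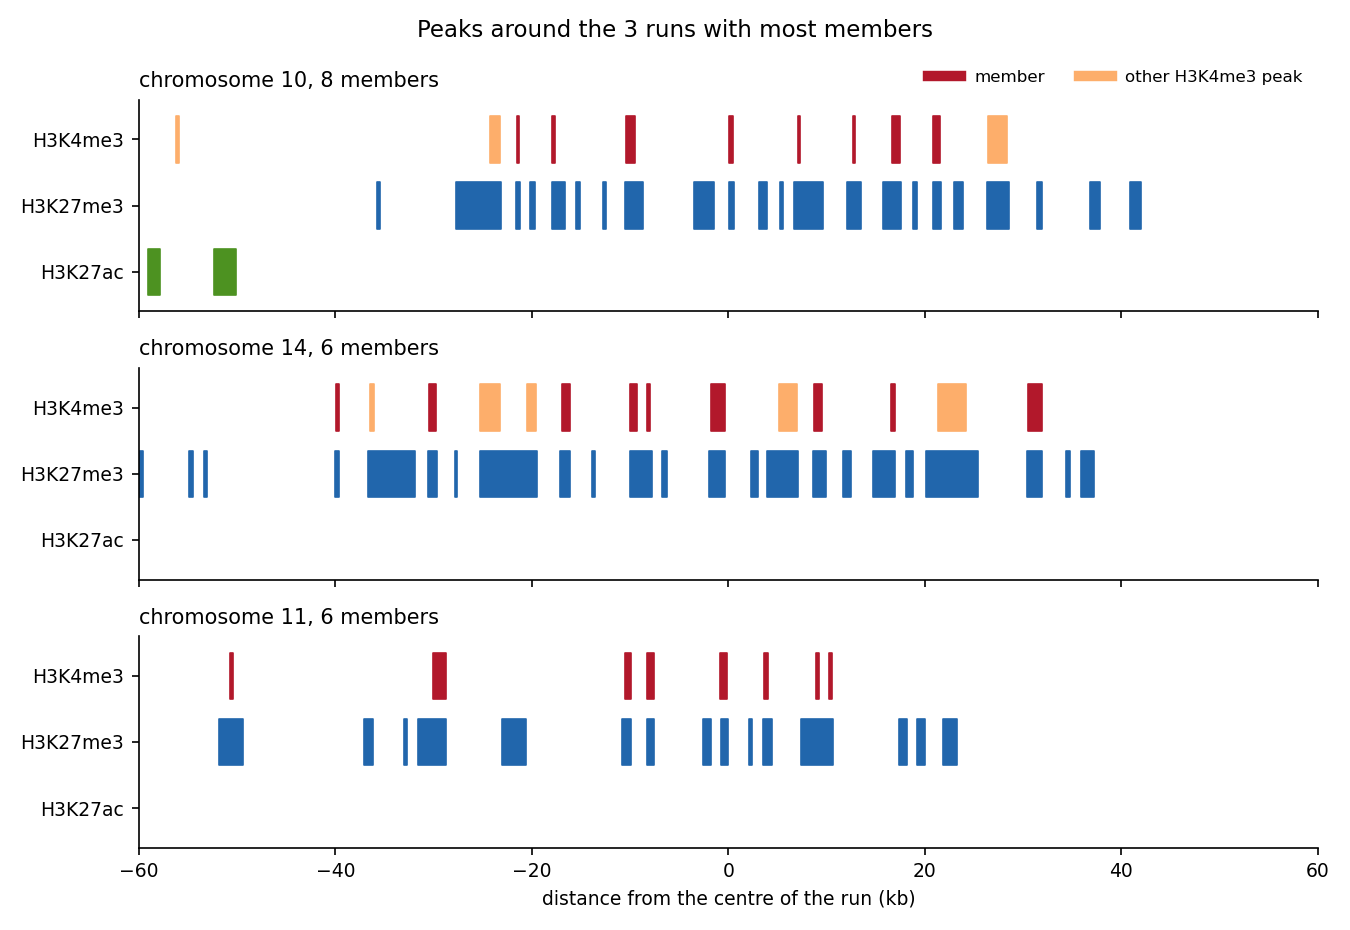
Positions of H3K4me3 peaks (members dark red, others light), H3K27me3 peaks and H3K27ac peaks within 60 kb of the centre of 3 runs, with distance from the centre in kb. The run with 8 members is drawn first, and the others were picked among the 4 runs with 6 members by highest H3K4me3 fold enrichment. Members outside the runs are drawn as well, and the runs of 8, 6 and 6 members lie among 15, 10 and 7 H3K27me3 peaks, and 0 H3K27ac peaks fall within any of them.

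The limit of 4000 bp leaves out the H3K27me3 peaks that could hold several members. Of the H3K27me3 peaks that remained, 48 of 2906 held 2 members, none held more, and 96 members (3.25%, 2.64 to 3.96) shared a peak in this way. Without the limit this share was 9.78% (8.79 to 10.8), and with a limit of 1000 bp it was 0%. The 0% was nearly fixed beforehand, since H3K4me3 peaks of the list lay at least 919 bp apart. In the pair with the highest H3K4me3 enrichment, chr6:15410054-15412753 held a member of 243 bp with a fold enrichment of 6.71 and one of 1314 bp with 3.44. The next 2 were chr2:7956959-7959897, with members of 552 and 236 bp at 2.99 and 6.42, and chr2:24438399-24439752, with members of 1099 and 232 bp at 3.27 and 4.69. In each of these named pairs the shorter member was the more enriched. The pairs were picked among the 48 by high H3K4me3 fold enrichment, and the others were not compared in this way.

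Members lay near the ends of chromosomes more often than peaks with H3K27ac or with neither mark, and less often than peaks with wide H3K27me3, a comparison made after the lists had been seen. Ends were taken as the limits of the span of peaks, since sequence lengths were not used here. Within 500 kb of an end lay 272 members (9.21%, 8.19 to 10.3), 331 peaks with H3K27ac (4.64%, 4.16 to 5.15) and 297 peaks with neither mark (2.43%, 2.16 to 2.72), as did 76 of 360 peaks with wide H3K27me3 (21.1%, 17.0 to 25.7). The share of members was 5.29% with fold enrichments of 3 or more in all lists and 6.08% with H3K27me3 peaks under 1000 bp. On chromosomes of 20 Mb or more, the shares were 4.37% (3.57 to 5.30) of members, 2.08% (1.71 to 2.51) of peaks with H3K27ac and 0.991% (0.807 to 1.204) of peaks with neither mark. Of 188 peaks with wide H3K27me3 there, 13 lay near an end (6.91%, 3.73 to 11.5), with an interval that overlaps that of members. For peaks with both H3K27me3 and H3K27ac the share was 3.125% (2.27 to 4.19) on all numbered chromosomes and 1.96% (1.22 to 2.99) on these larger ones. On these chromosomes members made up 29.2% (24.4 to 34.4) of the narrow H3K4me3 peaks within 500 kb of an end, but 10.8% between 500 kb and 2 Mb, 10.1% between 2 and 5 Mb and 12.1% further inside.

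**Figure D4:**
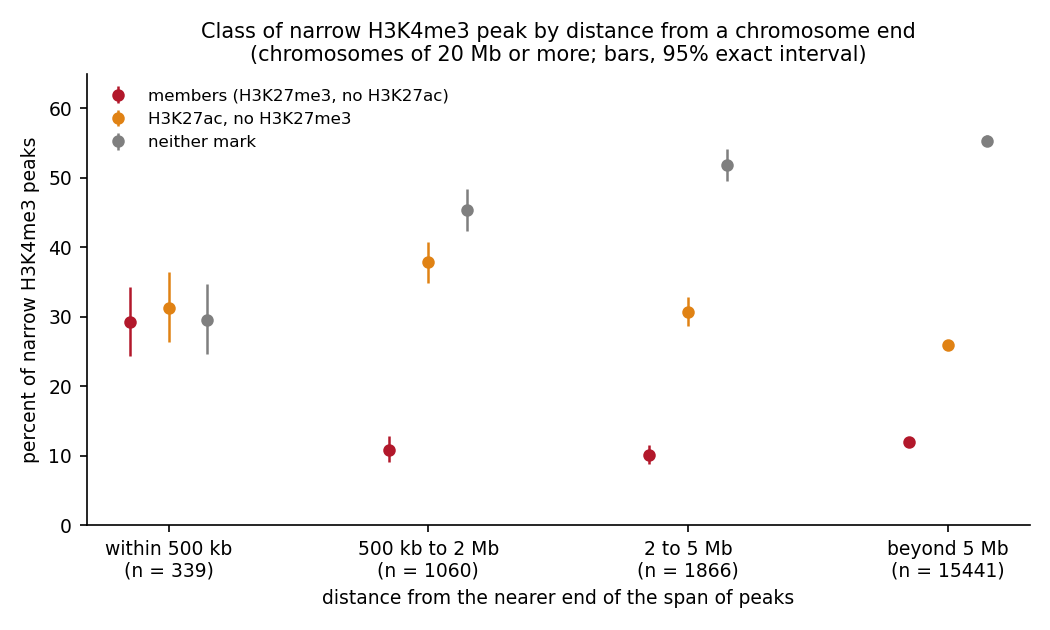
Share of narrow H3K4me3 peaks in each class by distance from the nearer end of the span of peaks, on chromosomes of 20 Mb or more, with exact 95% intervals and the number of narrow peaks per bin. Members make up 29.2% within 500 kb of an end and between 10.1 and 12.1% in the other bins, while the share of peaks with neither mark is 29.5% in the end bin and 55.3% in the innermost.

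Members near an end had weaker H3K4me3, with a median fold enrichment of 2.53 against 2.97 elsewhere, and a larger median gap to H3K27ac, 52285 bp against 14551.5 bp. No such drop in fold enrichment was seen for peaks with H3K27ac (3.06 near an end and 3.02 elsewhere), it was smaller for peaks with neither mark (2.84 and 2.92), and peaks with wide H3K27me3 had 2.81 near an end and 3.03 elsewhere. Of the 108 members with a fold enrichment of at least 4 in both marks, 2 (1.85%, 0.225 to 6.53) lay near an end, against 270 (9.49%, 8.44 to 10.6) of the other members.

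The low H3K4me3 enrichment was further examined by dividing narrow H3K4me3 peaks into 10 groups of equal size by fold enrichment. Members made up 22.6% (20.9 to 24.3) of the lowest group, with fold enrichments up to 2.55, and between 9.94 and 13.3% of the other 9. The 543 members in the lowest group were 18.4% of all members, against 8.68% of peaks with H3K27ac and 8.56% of peaks with neither mark. A low tail was not particular to members. The lower quartile of fold enrichment was 2.56 in peaks with wide H3K27me3 and 2.66 in members, while it was 2.80 in peaks with both H3K27me3 and H3K27ac. Despite their low ratio, 49.4% of these members (45.1 to 53.6) had a q-value of at most 0.01, compared with 14.7% (12.0 to 17.7) and 8.80% (7.15 to 10.7) of the low peaks with H3K27ac and with neither mark. A −log10 q-value of at least 5 was found for 90 of them (16.6%, 13.5 to 19.97), for 5 low peaks with H3K27ac and for 2 with neither mark. Of the low members, 25.4% (21.8 to 29.3) lay within 500 kb of a chromosome end, against 5.56% (4.68 to 6.55) of the other members. On the 5 chromosomes described below lay 21.9% (18.5 to 25.6) of the low members and 6.23% (5.29 to 7.27) of the others. The H3K27me3 peaks of low members had a median width of 1034 bp, against 648 bp, and a lower median fold enrichment, 2.61 against 3.06. Their median −log10 q-value was higher, 6.65 against 2.36. The local background behind these ratios was not analysed here.

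The share of narrow peaks that were members differed between chromosomes. On 5 chromosomes, singled out after their values were seen, it was above 25%, namely 43.8% on chromosome 16 (14 of 32 peaks), 42.0% on chromosome 31 (34 of 81), 36.1% on chromosome 33 (86 of 238), 31.7% on chromosome 27 (118 of 372) and 29.8% on chromosome 30 (17 of 57). Together they held 269 members, 34.5% (31.2 to 37.9) of their 780 narrow peaks. On the other 27 chromosomes, 2683 of 23271 narrow peaks were members, 11.5% (11.1 to 11.9), with a range between 5.43% on chromosome 21 and 15.8% on chromosome 11. Members of the 5 chromosomes had a median fold enrichment of 2.64 and a median gap to H3K27ac of 193042 bp, compared with 2.96 and 14110 bp for members elsewhere. Peaks with neither mark were less frequent there, 25.6% against 51.7% of narrow peaks. With the 5 chromosomes left out, 280 of 360 peaks with wide H3K27me3 remained, against 2683 of 2952 members. H3K27me3 peaks were denser on chromosomes 27, 33, 31 and 30 than on any chromosome outside the 5. There were 57.6, 53.5, 40.5 and 34.9 per Mb, but 23.7 on chromosome 16. H3K27ac peaks were sparsest on chromosomes 31 and 16, with 10.1 and 12.4 per Mb, but reached 56.8 on chromosome 27. Whether these densities bear on the share of members was not tested.

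**Figure D5:**
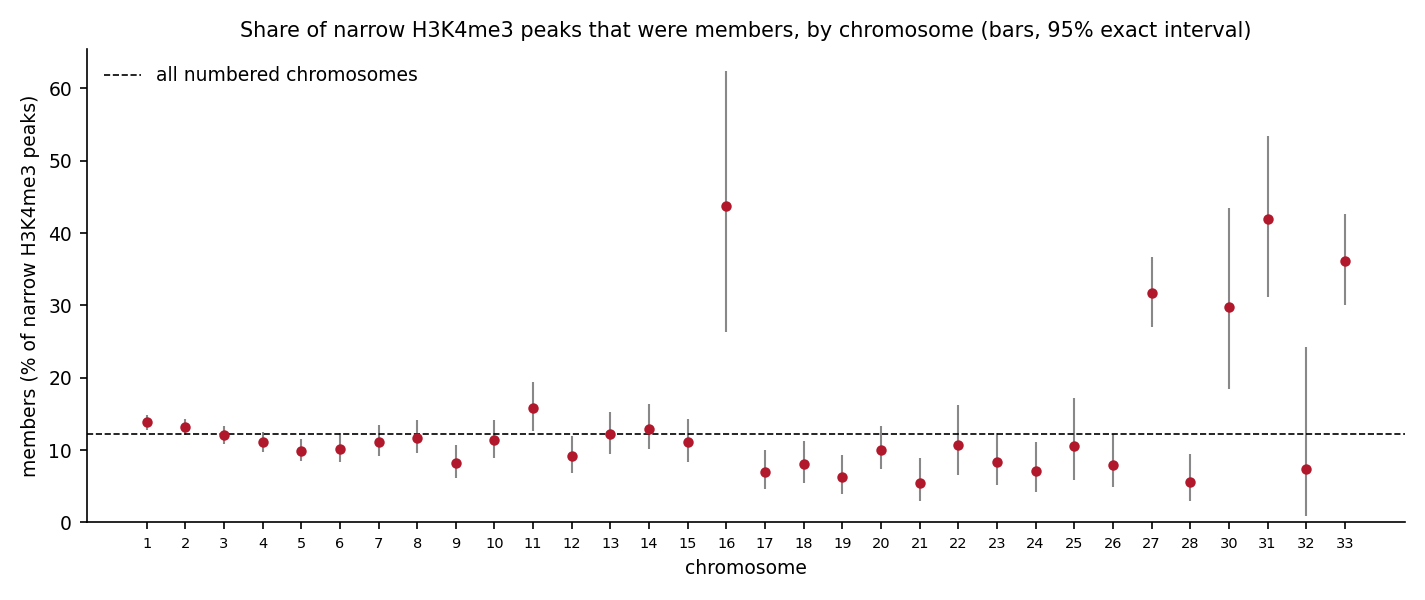
Percent of narrow H3K4me3 peaks that were members on each numbered chromosome of the list, with exact 95% intervals, and the share over all of them, 12.3%, as a dashed line. Chromosomes 16, 27, 30, 31 and 33 lie between 29.8 and 43.8%, the other 27 between 5.43 and 15.8%.

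All 5 were among the 20 chromosomes with a span under 20 Mb, as was chromosome 28, where 5.60% of narrow peaks were members. Chromosomes under 20 Mb carried 4.25 members per Mb, against 2.76 on those of 20 to 50 Mb and 2.86 on those of 50 Mb or more, whereas the share of narrow peaks was 12.9% (12.0 to 13.8), 10.9% (10.1 to 11.8) and 12.5% (12.0 to 13.1). Of the 687 members on chromosomes under 20 Mb, 269 were on the 5 chromosomes above 25%, which raised the pooled values of this size group. On the other chromosomes under 20 Mb, the share of narrow peaks was between 5.43% (chromosome 21) and 13.0% (chromosome 14). Their density was between 2.05 (chromosome 21) and 3.91 (chromosome 15) members per Mb. The highest density, 14.6 members per Mb, was on chromosome 27. The 5 members farthest from H3K27ac were all on chromosome 33, between positions 31 and 32867, with gaps of 2114370 to 2146856 bp. Their H3K4me3 fold enrichment was between 1.88 and 3.20 with −log10 q-values between 6.68 and 16.3, and their H3K27me3 peaks, 658 to 1324 bp wide, had fold enrichments between 3.66 and 7.63. With the 5 chromosomes left out, the share of members within 500 kb of an end was 7.86% (6.87 to 8.95), against 4.25% (3.79 to 4.76) of peaks with H3K27ac and 2.23% (1.97 to 2.51) of peaks with neither mark, and the median gap to H3K27ac was 14110 bp.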

How the data were processed

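Libraries of about 200 pieces of OEP ectoderm from embryos of 8 to 9 somites were prepared by a low-input ChIP protocol with sonication and PCR enrichment. The authors aligned reads to GalGal6 with BWA in the NF-core ChIPseq pipeline and used MACS2 for broad peaks of each antibody (false discovery rate under 0.1), and the submitters' processing notes also name Trim Galore. Whether the input library served as the caller's control is not given in the sources used here. The deposited lists give each peak a fold enrichment, which is a linear ratio to background, −log10 p-values and −log10 q-values, and a score that was not used, since it repeats the q-value in nearly all peaks.

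Overlaps, gaps and shares were computed with Python 3.11.15, pandas 2.3.3, numpy 2.4.6 and scipy 1.17.1, and the interval code was tested on simulated data. Shares carry exact Clopper-Pearson 95% intervals. Named regions were the 5 members with the highest H3K4me3 fold enrichment, the 5 with the highest H3K27me3 fold enrichment, the 5 widest, the 5 farthest from H3K27ac, and the 3 H3K27me3 peaks and 3 runs with most members. Ties in the number of members were broken by highest H3K4me3 fold enrichment. Alternatives were stricter q-values, fold enrichments and overlaps, other width limits, a 1 kb margin around H3K27ac, and merged peaks. Members, measures and rules were chosen with earlier results of these data known. Peak positions are 1-based. Chromosomes Z and W and unplaced sequences were left out by the rule.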

Additional observations from a re-analysis of the deposited data

Results flagged for a closer look

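The same overlaps and widths were also found outside the numbered chromosomes, on sequences that enter no comparison above. On unplaced sequences, 346 of 463 narrow H3K4me3 peaks (74.7%, 70.5 to 78.6) overlapped an H3K27me3 peak under 4000 bp and no H3K27ac peak. They lay on 89 sequences, had a median fold enrichment of 2.50, and 138 of them were on sequences without any H3K27ac peak. The unplaced sequences with H3K4me3 held 1076 H3K27me3 and 44 H3K27ac peaks. On chromosome Z, 229 of 1421 narrow peaks (16.1%, 14.2 to 18.1) were of this kind, with a median fold enrichment of 2.89, and on chromosome W 12 of 39 (30.8%, 17.0 to 47.6), with 2.23.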

How the results depend on the processing

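The number, share, width, enrichment, cover and spacing of members and their share near ends were recomputed under 10 alternatives, 7 planned and 3 added after seeing the data, save the share near ends without those ends. Members per Mb were recomputed under the stricter q-value only, and chromosome shares, neighbour counts, correlations, the comparison of H3K27me3 peaks and the low-enrichment group under none. Members kept the larger gap to H3K27ac and the larger share near chromosome ends than peaks with neither mark wherever these could be computed. Of 111 recomputed values, 70 stayed close, meaning within the interval of a share or within 1.5 times a count, median or difference. The median width, fold enrichment and cover of members did so throughout. Keeping peaks with a q-value of 0.01 or below in the 3 lists gave 1267 members, 12.8% of narrow peaks, of which 134 had not met the rule in the full lists, with a median gap to H3K27ac of 33289 bp, 16031 bp more than for peaks with neither mark. Then 4.58% shared an H3K27me3 peak, 25.7% lay within 10 kb of another member and 14.1% within 500 kb of a chromosome end, 11.2 percentage points more than peaks with neither mark. There were 1.07, 1.27 and 2.32 members per Mb on chromosomes of 50 Mb or more, of 20 to 50 Mb and under 20 Mb. A fold enrichment of at least 3 in all lists gave 1058 members, 9.60% of narrow peaks and 218 of them new, with a median gap of 50823 bp, a difference of 17451 bp, and shares of 1.70%, 14.0% and 5.29%, the last 2.64 percentage points above peaks with neither mark. Both filters also thin the H3K27ac list, which by itself widens gaps. Counting as overlap 50% or more of the shorter peak gave 11.4% of narrow peaks. With no width limit on H3K27me3, members were 13.8% of narrow peaks, and 9.78% shared an H3K27me3 peak, 30.6% lay within 10 kb of another and 10.5% near an end. A limit of 1000 bp left 1909 members, 7.94% of narrow peaks, with 9.27% within 10 kb of another and 6.08% near an end, 3.65 percentage points more than peaks with neither mark. The share that shared a peak was then 0%, which the spacing of H3K4me3 peaks nearly fixed beforehand.

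Without chromosomes 16, 27, 30, 31 and 33, members were 11.5% of narrow peaks, 19.7% lay within 10 kb of another and 7.86% near an end. Without peaks within 500 kb of an end, members were 11.6%, 2.46% shared a peak and 19.1% lay within 10 kb of another. Without the lowest 10% of narrow peaks by fold enrichment the shares were 11.1%, 1.83% and 15.1%, and 5.56% lay near an end, a difference of 3.44 percentage points. The planned comparison of positions relative to genes was not run, since no annotation of the assembly was used. No paired analysis was possible because each mark has 1 library. Depth is unknown and limits which weak peaks were listed, and the spread between embryos or immunoprecipitations was not measured.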
